A study of Mus musculus with 9 samples.

Results

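Primordial germ cells (PGCs) taken from the male genital ridge of E13.5 embryos were compared with embryonic stem (ES) cells that had switched on a germ cell reporter after knockdown of Max. The question was which transcripts of true germ cells the reporter-positive ES cells lacked, which they shared, and which they carried in excess. The comparison used 6 of the 9 arrays of the study, 3 of PGCs and 3 of knockdown cells, chosen by their titles, and all 39429 non-control probes of the array. After the filter on dim probes, 20443 genes or unnamed identifiers were tested.

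The PGCs were GFP-positive cells from embryos of MCH x C57BL6/J background that carry the Oct4ΔPE-GFP transgene, a reporter of germ cells, and they were sorted as live single cells directly after dissection. The knockdown cells were VV3, a single male ES cell line of 129SV background with a Venus reporter under the promoter of Vasa (Ddx4). They were grown with serum replacement, a little serum and LIF, received siRNA against Max, and were sorted as live single Venus-positive cells after 3 days. The control ES cells, whose levels are set beside the comparison, were VV3 cells given the non-silencing AllStars siRNA, from which live single cells were taken without a Venus gate. Strain, source, culture and sorting gate thus all differed between PGCs and knockdown cells, and their parts cannot be told apart. The labels do not give the number of embryos behind a PGC sample.

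MAX is the common partner of the MYC family of transcription factors, and it also pairs with MGA in the Polycomb complex PRC1.6, which keeps germline genes silent in ES cells. Male PGCs at this age have colonised the gonad, have lost most of their DNA methylation, leave the cell cycle and begin to turn towards spermatogenesis under the RNA-binding protein NANOS2. Meiosis, which female germ cells begin at about this age under retinoic acid, does not start in the male gonad until after birth.

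Levels are log2 signals relative to the 75th percentile of the array, and differences are PGC minus knockdown on that scale, with the standard error (SE) of the fit. Calls are limma adjusted p-values under 0.05 over all genes tested. Between 58.2% and 67.6% of the spots of an array were well above background and 0 were saturated. Across genes, arrays of 1 group correlated at 0.991 to 0.995, and PGC with knockdown arrays at 0.866 to 0.876. Max itself stood at 3.77, 3.65 and 3.57 in PGCs and at 0.59, 0.83 and 1.13 in knockdown cells, with a mean of 2.81 in control cells. Max was higher on each PGC array than on each knockdown array (difference 2.81, SE 0.14, limma adjusted p = 3.1e-07). PGCs and knockdown cells shared no slide, and scan day followed the slide, so slide and group cannot be told apart.

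The difference between the cell types was broad. In PGCs 9170 genes (44.9%) were higher and 6423 (31.4%) were lower, and 4184 (20.5%) and 4018 (19.7%) of the genes tested passed with at least a 2-fold difference, 40.1% in either direction. The arrays of the groups did not overlap for 78.5% of genes. These shares are the background for the counts below. The median difference of all genes was 0.21, and it was -0.75 when arrays were scaled on the spike-in transcripts. Each difference below is therefore relative to that scale, and with spike-in scaling it is 0.97 lower. In addition, 552 genes (2.7%) were above background on all PGC arrays and on none of the knockdown arrays, and 854 genes (4.18%) showed the reverse.

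**Figure D1:**
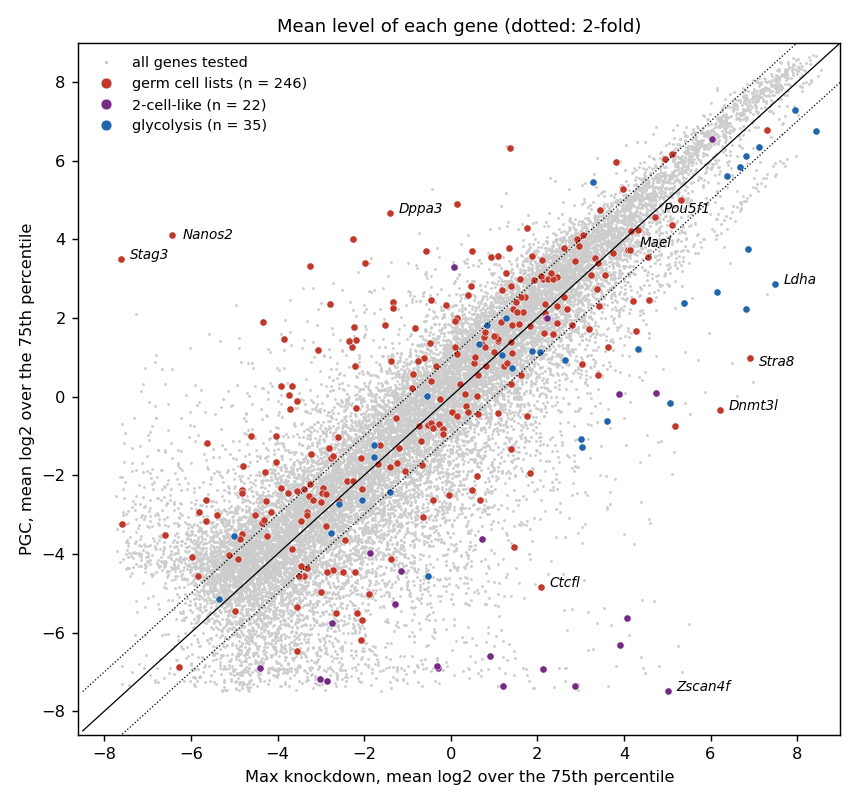
Mean level of each gene tested in knockdown cells (horizontal axis) and in PGCs (vertical axis), both as log2 signal over the 75th percentile of the array, n = 3 arrays a group. The solid line marks equal levels and the dotted lines 2-fold differences; the 246 germ cell list genes lie on both sides of the line, with Stag3 and Nanos2 far above it and Stra8, Dnmt3l and Ctcfl far below, while values near the bottom and left edges are close to or under background.

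Of 284 genes on 10 germ cell lists, 263 were on the array and 246 passed the filter. Of these 246, 132 (53.7%) were higher in PGCs, 69 (28.0%) were lower and 45 did not pass the test. At least 2-fold differences were found for 96 upward (39.0%, against 20.5% of all genes) and 43 downward (17.5%, against 19.7%). A further description asked which genes were close: the 95% interval of the difference lay within 2-fold, here called alike, for 76 of the 246 (30.9%), against 41.8% of all genes. That interval depends on the scale, and with spike-in scaling 0 of the 246 met it.

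The promoters of 7 genes that stand for these outcomes are printed here because MAX binds the E-box CACGTG and E2F6, another subunit of PRC1.6, binds E2F letters such as TCCCGC. Nanos2, Tdrd5 and Stag3 were higher in PGCs, Mael was alike in both, Sycp3 was close, and Stra8 and Mei1 were lower in PGCs. Sequences are from RefSeq on build GRCm38.p6, 5′ to 3′ on the strand of the gene, from 250 bases before the start site to 50 after it, and capitals mark an E-box or an E2F match on either strand.
Nanos2, chr7:18987274-18987573, plus strand: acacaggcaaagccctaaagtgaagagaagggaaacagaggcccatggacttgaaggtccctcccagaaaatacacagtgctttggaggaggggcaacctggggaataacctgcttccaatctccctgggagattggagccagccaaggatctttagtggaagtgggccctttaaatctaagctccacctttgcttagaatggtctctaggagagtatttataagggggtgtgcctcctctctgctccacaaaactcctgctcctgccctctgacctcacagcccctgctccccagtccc
Tdrd5, chr1:156303299-156303598, minus strand: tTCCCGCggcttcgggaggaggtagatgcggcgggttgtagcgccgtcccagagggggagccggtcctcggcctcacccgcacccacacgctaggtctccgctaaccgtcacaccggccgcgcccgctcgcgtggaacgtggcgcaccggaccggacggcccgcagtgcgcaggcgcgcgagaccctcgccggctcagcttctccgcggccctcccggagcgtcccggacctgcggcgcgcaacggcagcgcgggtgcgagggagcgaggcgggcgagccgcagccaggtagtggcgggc
Stag3, chr5:138280259-138280558, plus strand: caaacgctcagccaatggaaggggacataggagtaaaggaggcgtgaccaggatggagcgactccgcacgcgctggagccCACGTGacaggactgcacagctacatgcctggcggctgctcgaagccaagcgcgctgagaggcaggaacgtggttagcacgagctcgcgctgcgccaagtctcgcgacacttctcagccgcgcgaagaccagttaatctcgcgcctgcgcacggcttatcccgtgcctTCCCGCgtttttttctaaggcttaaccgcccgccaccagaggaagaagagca
Mael, chr1:166238695-166238994, minus strand: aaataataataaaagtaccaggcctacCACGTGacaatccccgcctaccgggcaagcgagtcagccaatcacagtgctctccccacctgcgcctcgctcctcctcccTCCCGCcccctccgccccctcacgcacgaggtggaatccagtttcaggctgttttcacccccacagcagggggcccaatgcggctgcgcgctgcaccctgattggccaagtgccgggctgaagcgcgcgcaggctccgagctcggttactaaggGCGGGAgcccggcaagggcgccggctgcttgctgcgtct
Sycp3, chr10:88459337-88459636, plus strand: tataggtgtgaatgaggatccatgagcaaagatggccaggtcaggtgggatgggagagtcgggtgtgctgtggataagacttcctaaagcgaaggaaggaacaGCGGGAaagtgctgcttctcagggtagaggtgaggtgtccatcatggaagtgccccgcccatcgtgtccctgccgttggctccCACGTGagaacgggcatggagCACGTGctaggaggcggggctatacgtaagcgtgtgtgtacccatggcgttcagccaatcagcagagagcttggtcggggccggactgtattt
Stra8, chr6:34920698-34920997, plus strand: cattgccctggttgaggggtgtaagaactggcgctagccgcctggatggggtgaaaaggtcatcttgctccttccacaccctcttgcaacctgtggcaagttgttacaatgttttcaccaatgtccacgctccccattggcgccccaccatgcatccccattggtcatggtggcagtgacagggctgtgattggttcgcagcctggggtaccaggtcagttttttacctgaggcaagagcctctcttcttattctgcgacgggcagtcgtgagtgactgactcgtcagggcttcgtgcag
Mei1, chr15:82082226-82082525, plus strand: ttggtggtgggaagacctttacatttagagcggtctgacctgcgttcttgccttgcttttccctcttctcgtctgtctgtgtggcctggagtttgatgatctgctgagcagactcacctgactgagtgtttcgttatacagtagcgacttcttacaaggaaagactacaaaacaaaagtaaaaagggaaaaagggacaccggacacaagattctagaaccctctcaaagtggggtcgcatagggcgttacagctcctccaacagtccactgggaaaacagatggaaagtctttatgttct
Sycp3 holds 2 E-boxes, at positions -64 and -43 from the start site, and an E2F match at -147. Mael holds 1 E-box at -223 and E2F matches at -143 and 12, and Stag3 1 E-box at -170 with an E2F match at -2. Tdrd5 holds only an E2F match at -249, and neither letter pattern is in the windows of Nanos2, Stra8 and Mei1. The window of Nanos2 has 0 CpG dinucleotides, against 48 in that of Tdrd5.

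Over the germ cell lists the letters were spread across all outcomes. The table held 255 promoters of 194 of the 246 genes, and 18.0% of them had an E-box, against 9.61% of 14582 promoters of tested genes and 7.15% of all 32851 promoters. The share was 15.6% of 90 promoters of genes at least 2-fold higher in PGCs, 20.0% of 90 promoters of genes within 2-fold and 17.6% of 51 promoters of genes at least 2-fold lower. E2F letters were found in 32.2%, 43.3% and 41.2% of these promoters, against 32.7% of promoters of tested genes. The median count of CpG dinucleotides was 18.0, 18.5 and 15.0, against 19 for tested genes. These shares describe letters in 300-base windows, some genes have several windows, and 1 of the lists was itself made of known PRC1.6 targets.

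Several germline determinants that act through RNA were far below PGC level in the knockdown cells. Of 36 germline RNA-binding protein genes tested, 22 (61.1%) were higher in PGCs, 17 of them at least 2-fold, and 11 were lower, with a list median of 0.87 (0.66 above that of all genes). Nanos2, which directs the male fate and represses meiosis, stood at 4.12, 3.87 and 4.32 in PGCs and at -7.77, -4.26 and -7.30 in knockdown cells, where 1 of 3 arrays was above background. Knockdown array 2 stood apart from the others, and the difference of 10.55 has a large error (SE 1.01, adjusted p = 1.8e-05).

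Nanos3, which protects migrating PGCs from death, stood at 3.71, 3.55 and 3.85 against -0.55, -0.60 and -0.59. Knockdown cells were near the control mean of -0.79, and the difference was 4.28 (SE 0.11, adjusted p = 1.5e-08). Dnd1, the partner of NANOS proteins that shields germ cell messages, stood at 4.84, 4.89 and 4.95 against -0.17, 0.50 and 0.12, a difference of 4.74 (SE 0.16). The control mean of Dnd1, 0.47, lay within the knockdown range. The splicing regulator Esrp1 and the RNA-binding protein gene Elavl2 were higher in PGCs by 3.74 (SE 0.12) and 3.33 (SE 0.12).

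Ddx4 and Dazl, widely used markers of the germ line, were much closer in the knockdown cells. Ddx4, whose promoter drives the Venus reporter by which knockdown cells were sorted, stood at 4.06, 3.81 and 4.12 against 3.07, 2.95 and 2.73, with a control mean of 0.28. PGCs were higher by 1.08 (SE 0.13, adjusted p = 8.4e-05). Dazl, a translation regulator needed for germ cell licensing, stood at 3.90, 3.65 and 3.76 against 2.76, 2.57 and 2.52, with a control mean of -1.88 (difference 1.16, SE 0.26, adjusted p = 0.0034). With spike-in scaling the differences were 0.11 and 0.19 and neither passed the test.

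A group of RNA-binding genes was lower in PGCs. D1Pas1, a testis DEAD-box helicase gene, stood at -2.57, -2.70 and -2.62 in PGCs and at 0.66, 0.71 and 0.65 in knockdown cells (difference -3.30, SE 0.10, adjusted p = 2.6e-08). Meioc, which with YTHDC2 holds germ cells in meiotic prophase, differed by -2.87 (SE 0.09), and Boll, a relative of DAZL that acts in meiotic and later germ cells, by -1.08 (SE 0.10).

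**Figure D2:**
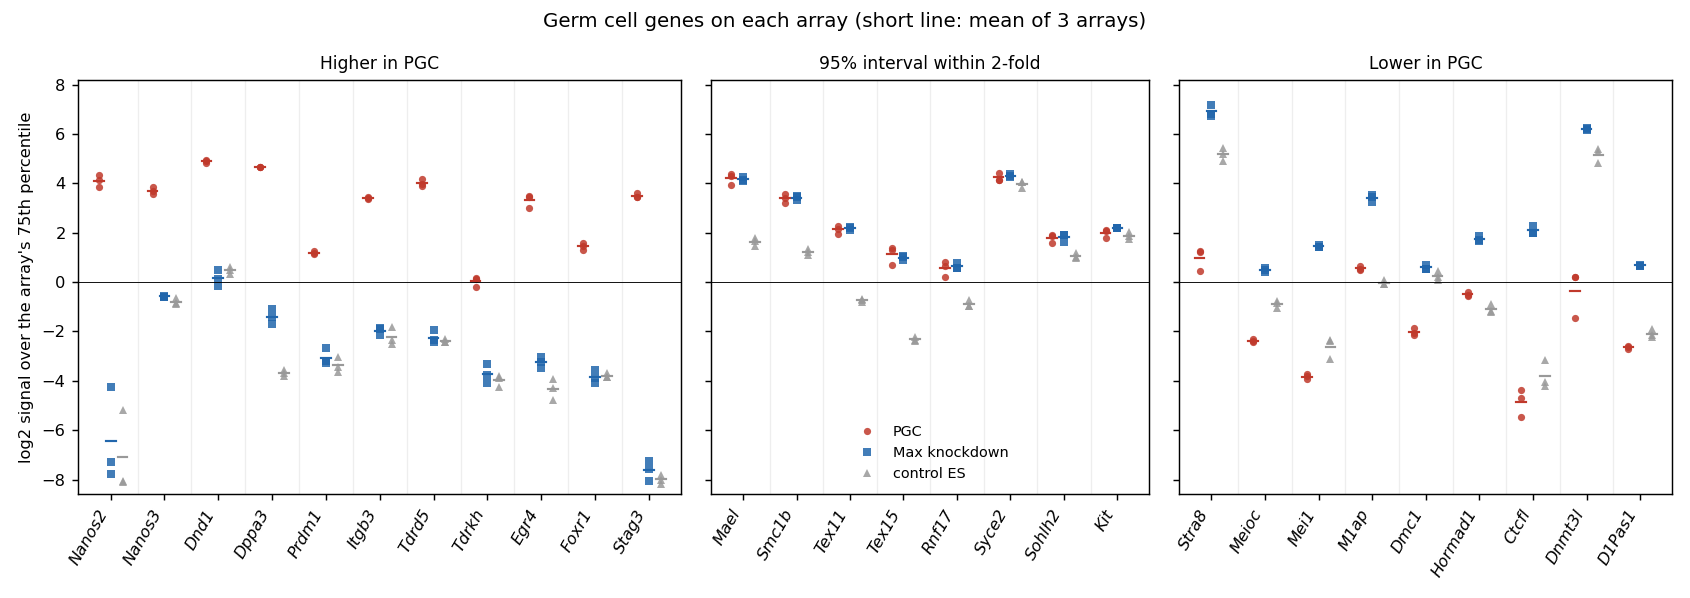
Level of 28 germ cell genes on each of 9 arrays (vertical axis: log2 signal over the 75th percentile of the array), for PGCs (circles), knockdown cells (squares) and control ES cells (triangles), with the mean of 3 arrays as a short line. In the left panel the knockdown cells lie with the control cells for Nanos3, Dnd1, Itgb3 and Tdrd5, in the middle panel they lie with the PGCs, and in the right panel they lie above the PGCs.

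PGC specification and surface genes divided by member. Of 30 tested, 14 (46.7%) were higher in PGCs and 11 (36.7%) lower, and the list median of 0.14 was near that of all genes. Dppa3 (Stella), which guards methylation in the early embryo and marks PGCs from their first days, stood at 4.66, 4.66 and 4.67 against -1.10, -1.40 and -1.69 (difference 6.06, SE 0.14, adjusted p = 1.3e-08), with a control mean of -3.68. Knockdown cells thus lay between control cells and PGCs on the Dppa3 probe, and nearer to control cells.

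Prdm1 (Blimp1), the repressor that specifies PGCs, stood at 1.16, 1.25 and 1.13 against -2.69, -3.29 and -3.19 (difference 4.23, SE 0.19, adjusted p = 2.1e-07), with a control mean of -3.36. Itgb3, an integrin subunit used to sort PGCs as CD61, differed by 5.39 (SE 0.17), or by 6.39 on another probe. Kit, the receptor of stem cell factor, was alike at 2.08, 2.11 and 1.77 against 2.19, 2.18 and 2.20 (interval -0.47 to 0.06). Prdm14, the other specification regulator, did not pass the test at 1.76, 1.97 and 1.83 against 1.86, 1.59 and 1.29 (interval -0.26 to 0.80).

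Tfap2c, the third gene of that specification network, was lower in PGCs at 0.71, 0.93 and 0.84 against 3.43, 2.90 and 2.75 (difference -2.20, SE 0.23, adjusted p = 2.8e-05). Control cells had a mean of 2.73 for Tfap2c, just under the lowest knockdown array. Other surface genes lower in PGCs were Cd38 (-2.26) and the laminin receptor subunit gene Itga6 (-2.14). Cdh1, E-cadherin, was alike, with an interval of -0.21 to 0.24.

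Of the genes that silence transposons, 21 of 29 tested (72.4%) were higher in PGCs, 15 of them at least 2-fold, and 2 were lower. The list median was 1.08. piRNAs are small RNAs that guide PIWI proteins to transposons, and proteins with Tudor domains hold this machinery in germ granules. Tdrd5, such a Tudor protein, stood at 3.97, 3.89 and 4.18 in PGCs and at -1.96, -2.36 and -2.43 in knockdown cells (difference 6.26, SE 0.14, adjusted p = 9.9e-09; 6.79 on another probe). The control mean of -2.38 lay within the knockdown range.

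Tdrkh, a mitochondrial Tudor protein needed to trim piRNAs, stood at 0.15, -0.18 and 0.11 against -3.33, -3.76 and -4.09 (difference 3.75, SE 0.21). Exd1 (difference 3.58, SE 0.09), Tdrd7 (2.34, SE 0.12) and the piRNA trimmer gene Pnldc1 (1.87, SE 0.08; 0.9 and not called with spike-in scaling) were also higher in PGCs. Asz1, a germ granule scaffold, was above background on all knockdown arrays and no control array, and was still higher in PGCs by 3.55 (SE 0.23). Mov10l1, the helicase that starts piRNA making, stood at 2.37, 1.91 and 2.21 against 1.65, 1.66 and 1.70, with a control mean of -2.72. Its difference of 0.49 (SE 0.13, adjusted p = 0.0071) turned to -0.47 with spike-in scaling.

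Mael, Tex15 and Rnf17 were on the same level in both. Mael, a nuage protein of the piRNA pathway, stood at 4.28, 3.93 and 4.40 in PGCs and at 4.25, 4.11 and 4.12 in knockdown cells, with a control mean of 1.63 (interval -0.27 to 0.35). Tex15, which links piRNAs to DNA methylation, stood at 1.39, 0.71 and 1.31 against 0.91, 1.04 and 1.01, with a control mean of -2.31 (interval -0.23 to 0.53). Rnf17 had an interval of -0.44 to 0.27. The groups overlapped for Mael, Tex15 and Rnf17. Without PGC array 2 the difference of Tex15 was 0.36 and passed the test. Tdrd9, a piRNA helicase, was lower in PGCs at -0.06, -1.11 and -0.13 against 0.62, 0.53 and 0.69 (difference -1.05, SE 0.28, adjusted p = 0.0076), with a control mean of -5.29.

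Of the male programme of this age, 18 of 26 genes tested (69.2%) were higher in PGCs and 7 lower, with a list median of 1.02. The lower genes included large differences. Dnmt3l, the cofactor of de novo DNA methylation that male germ cells use later in fetal life, stood at 0.20, -1.47 and 0.21 in PGCs and at 6.16, 6.24 and 6.21 in knockdown cells (difference -6.56, SE 0.41, adjusted p = 1.2e-06). Control cells had a mean of 5.17. Ctcfl, the testis relative of CTCF, stood at -4.68, -5.48 and -4.38 against 2.0, 2.0 and 2.28 (difference -6.94, SE 0.33, adjusted p = 3.0e-07), with 2 of 3 PGC arrays above background and a control mean of -3.81.

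Transcription factors of germ cells were higher in PGCs in 17 of 32 cases (53.1%), 15 of them at least 2-fold, and lower in 4. Egr4, a zinc finger factor of male germ cells, stood at 3.44, 3.00 and 3.50 against -3.48, -3.24 and -3.05 (difference 6.57, SE 0.23, adjusted p = 6.2e-08). Foxr1, a forkhead factor, stood at 1.32, 1.46 and 1.6 against -3.90, -3.58 and -4.09 (difference 5.32, SE 0.14). Id4, which marks spermatogonial stem cells, and Foxo1, which acts in the same cells, were higher by 4.18 (SE 0.21) and 2.47 (SE 0.11). The male fate list added the homeobox gene Lhx1 (3.92, SE 0.10) and the zinc finger gene Bnc2 (4.0, SE 0.15).

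Sohlh2, a bHLH factor of early spermatogonia and oocytes, was alike at 1.92, 1.88 and 1.6 against 1.64, 1.91 and 1.91 (interval -0.30 to 0.26). Figla, which drives oocyte genes, was above background on all 3 knockdown arrays and on no PGC or control array, at least 3.08-fold lower in PGCs (adjusted p = 7.0e-07), a call lost with normexp background correction (-1.52). Taf7l, a germ cell variant of a TFIID subunit, was lower (difference -1.78, SE 0.21).

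The retinoic acid and meiotic entry list split evenly, with 11 of 24 genes higher and 11 lower (45.8% each), and recombination genes had 13 of 32 higher (40.6%) and 11 lower (34.4%), near the shares of all genes. Synaptonemal complex, axis and cohesin genes had 4 of 19 higher (21.1%) and 9 lower (47.4%). Relative to all genes, the medians of the meiotic entry and synaptonemal lists were -0.52 and -0.48, and they turned to 0.24 with the filter on all 9 arrays and to 0.11 with normexp, respectively. Stra8, the gatekeeper of meiosis downstream of retinoic acid, stood at 0.46, 1.27 and 1.23 in PGCs and at 6.82, 6.74 and 7.19 in knockdown cells, with a control mean of 5.18. The difference was -5.93 (SE 0.24, adjusted p = 1.3e-07), and both ES cell groups lay far above the PGCs.

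Mei1, needed for the DNA breaks of meiosis, stood at -3.94, -3.74 and -3.82 against 1.41, 1.5 and 1.44, with a control mean of -2.61 (difference -5.28, SE 0.19, adjusted p = 6.8e-08). M1ap, a crossover factor, stood at 0.52, 0.50 and 0.67 against 3.53, 3.26 and 3.43 (difference -2.84, SE 0.10). Dmc1, the meiotic recombinase, differed by -2.62 (SE 0.12), with other probes at -2.99 and -2.79. Hormad1, of the unsynapsed axis, differed by -2.24 (SE 0.11; -2.89 on another probe), and Kash5, which links telomeres to the cytoskeleton through the nuclear envelope, by -2.43 (SE 0.13). Majin, which anchors telomeres there, was above background on 1 of 3 PGC arrays, with a fitted difference of -3.33 (SE 0.33). Syce1, of the central element, stood at 3.58, 3.53 and 3.56 against 4.50, 4.46 and 4.68. It and Sycp3 were not called with normexp (-0.62 and -0.25).

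Sycp3, an axial element, stood at 1.89, 1.69 and 2.0 in PGCs and at 2.66, 2.30 and 2.39 in knockdown cells, with a control mean of -1.17 (difference -0.59, SE 0.14, adjusted p = 0.0045). Smc1b, the meiotic cohesin, was alike at 3.58, 3.22 and 3.42 against 3.48, 3.32 and 3.43 (interval -0.26 to 0.26), and so were the crossover factor Tex11 (interval -0.28 to 0.18) and the central element gene Syce2 (interval -0.33 to 0.19). Control means were 1.22, -0.73 and 3.97 for the 3 genes, so control cells lay well below both groups for Smc1b and Tex11 and close to them for Syce2.

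The cohesin gene Stag3 broke with its list. It stood at 3.61, 3.44 and 3.44 in PGCs and at -8.05, -7.56 and -7.25 in knockdown cells, where no array was above background, nor in control cells. Stag3 was at least 481-fold higher in PGCs (adjusted p = 5.8e-09). Spo11, whose protein makes meiotic breaks, stood at -1.24, -1.27 and -1.0 against -5.70, -6.01 and -5.16, with 1 of 3 knockdown arrays above background (difference 4.45, SE 0.34; 1.39 and not called with normexp). The helicase gene Hfm1 (3.40, SE 0.30) and the central element gene Tex12 (2.98, SE 0.15) were higher too. The meiotic genes in knockdown cells thus held some members above PGC level, some alike and others below it. Of those below, Stag3 was above background in neither ES cell group. Hfm1 was above background on 3 of 3 knockdown arrays and on 0 control arrays, and Tex12 had means of -2.21 in knockdown and -3.47 in control cells.

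Of 33 germline targets of PRC1.6 tested, 16 (48.5%) were higher in PGCs and 13 (39.4%) lower, with a median of 0.21, equal to that of all genes. The list shares Stag3, Mael, Mei1, Stra8 and Ctcfl with those above, and added Tuba3b, a testis tubulin gene, at 4.22, 4.25 and 4.37 against 1.96, 1.64 and 1.70 with a control mean of -0.42. Cancer/testis and X-linked families had 24 of 34 higher (70.6%) and 3 lower, with a median of 1.03. Xlr5a stood at 1.51, 1.10 and 1.63 against -2.52, -2.35 and -2.18 (difference 3.76, SE 0.16), with a control mean of -4.64. Tex14, of the bridges between germ cells (2.45, SE 0.11), the testis bromodomain gene Brdt (2.56, SE 0.13) and Tex19.2 (3.21, SE 0.16) were higher, while the mRNA export gene Nxf2 was lower at 2.21, 0.72 and 2.26 against 3.30, 3.04 and 3.23 (not called with normexp, at -1.1). Members of these families have close copies on the X chromosome, and a probe may read several of them.

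**Figure D3:**
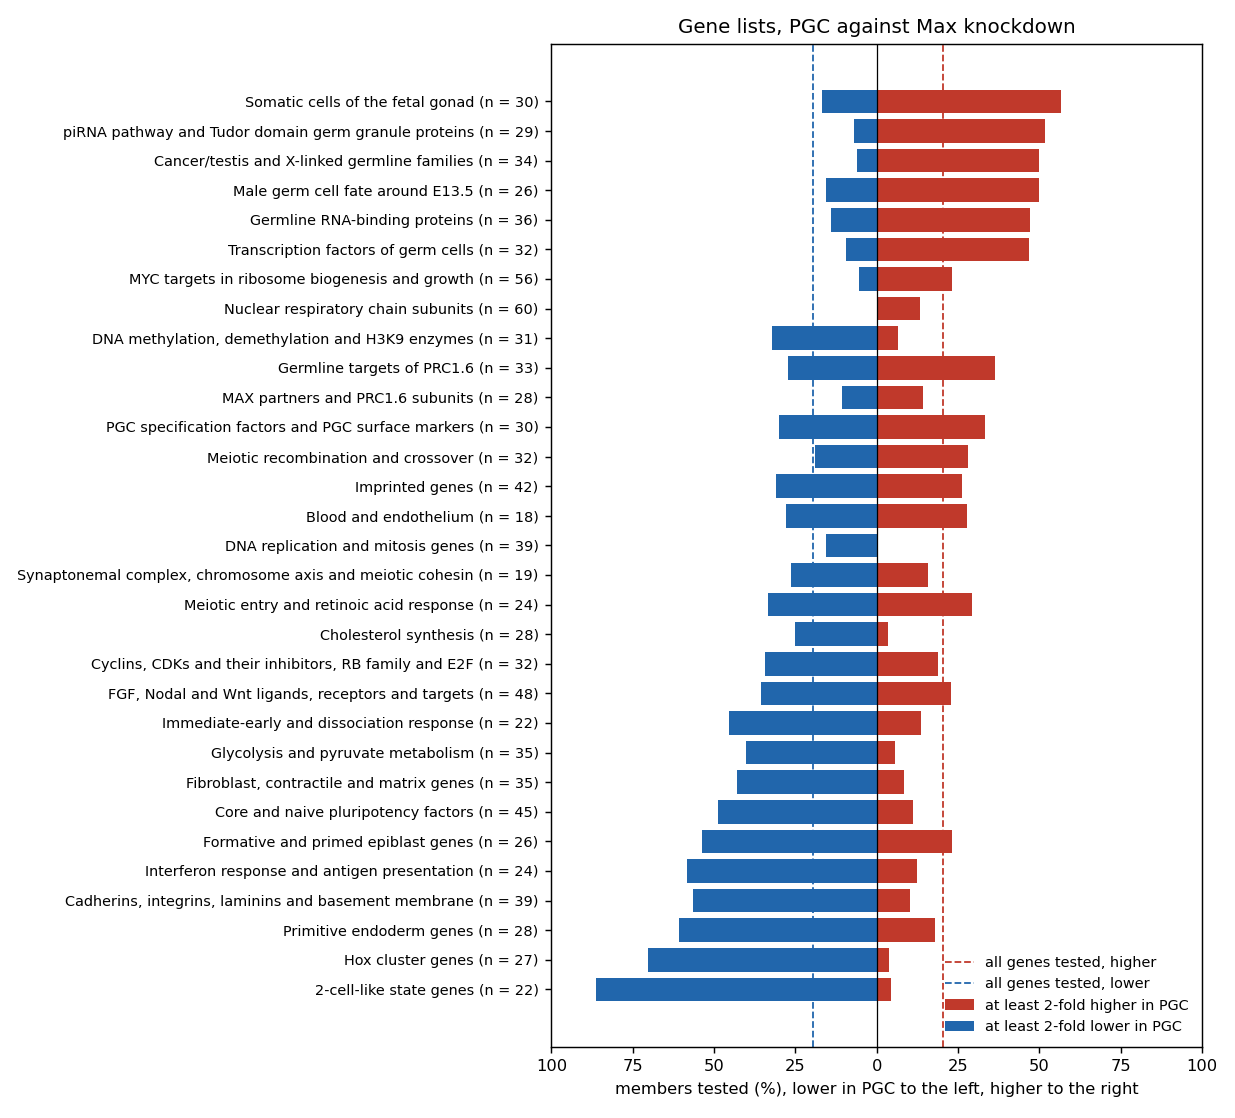
Share of the tested members of each gene list that passed the test with at least a 2-fold difference, higher in PGCs to the right and lower to the left (n = members tested), in the order of the list medians. Dashed lines give the shares over all genes, 20.5% and 19.7%; gonadal somatic and piRNA genes lie at the top and Hox and 2-cell-like genes at the bottom, and a bar past its dashed line is a larger share than among all genes.

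Knockdown cells carried transcripts of the 2-cell-like state, a transient ES cell state with transcripts of the 2-cell embryo. Of 22 genes tested, 19 (86.4%) were lower in PGCs and 2 were higher, and 14 of them were above background on all knockdown arrays and no PGC array (63.6%, against 4.18% of all genes). A gene dim in PGCs passed the filter only through the ES cell arrays, so these shares partly follow from the filter. Zscan4f, a telomere factor of that state, stood at 5.31, 4.77 and 4.96 in knockdown cells and at -8.07, -7.25 and -7.11 in PGCs, at least 1160-fold lower in PGCs (adjusted p = 8.2e-09). Its control mean was 2.64. Pramel16 and Gm5662 were at least 264-fold and at least 538-fold lower. Among the 12 largest falls over all genes were also Gm20767, Gm13043 and AF067061, at least 1010-fold, 1340-fold and 445-fold lower. Zscan4 and Prame genes lie in clusters of near-identical copies, so a probe does not tell one copy from another.

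Pluripotency genes were shared only in part. Of 45 core and naive genes, 31 (68.9%) were lower in PGCs and 11 (24.4%) higher, with a list median of -0.94. Pou5f1 (Oct4), whose distal enhancer drives the reporter by which the PGCs were sorted, was alike at 4.33, 4.71 and 4.65 against 4.57, 4.81 and 4.74 (interval -0.42 to 0.12). With quantile normalization Pou5f1, Kit and Syce2 passed the test at -0.35, -0.39 and -0.26. Sox2 was lower in PGCs at 0.74, 0.89 and 0.77 against 2.56, 2.51 and 2.25 (difference -1.64, SE 0.12, adjusted p = 3.5e-06). The naive factors Esrrb (-1.58, SE 0.14), Tfcp2l1 (-2.47, SE 0.19) and Klf2 (-2.37, SE 0.20) were lower as well.

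Other members had larger differences. Klf4 stood at -0.13, -0.43 and -0.41 against 3.82, 3.54 and 3.55 (difference -3.96, SE 0.12). Tbx3 and the growth factor gene Fgf4 were above background on 1 of 3 PGC arrays, with differences of -9.53 (SE 0.33) and -9.58 (SE 0.24, adjusted p = 1.6e-08). Tdgf1 (Cripto), the Nodal coreceptor, differed by -5.91 (SE 0.17), and by -8.32 and -7.61 on other probes. Dppa4 and Tcl1 were higher in PGCs by 1.64 (SE 0.11) and 1.79 (SE 0.23), and not called with spike-in scaling (0.68 and 0.82). For Nanog the matched probe was dim in ES cells of both kinds (control mean -4.17) and read 2.87 higher in PGCs (SE 0.21). It is not read as a measure of Nanog, although it stays in the counts of this list and among the ES cell markers below.

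Genes of formative and primed epiblast were lower in 15 of 26 cases and higher in 7 (median -1.24). The epiblast factors Tcf15 and Pou3f1 differed by -3.53 (SE 0.10) and -2.64 (SE 0.12). Among the higher was Wnt3, a ligand that induces the germ line, at 0.72, 0.73 and 0.73 in PGCs and above background on no knockdown array, at least 70.6-fold higher (adjusted p = 7.2e-09). The Wnt target Sp5 was higher by 4.25 (SE 0.22), and the Wnt receptor gene Fzd2 by 2.62 (SE 0.13). Over FGF, Nodal and Wnt genes together, 16 of 48 were higher and 24 lower. Hox cluster genes, which pattern the body axis, were lower in PGCs in 20 of 27 cases (74.1%), with Hoxb2 at least 22.9-fold lower.

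Genes of outer tissue and contact followed. Primitive endoderm genes were lower in 17 of 28 cases and higher in 5, with Lrp2, an endocytic receptor, and Apoe at -4.92 (SE 0.15) and -4.79 (SE 0.13). Of cadherins, integrins and laminins 23 of 39 were lower and 9 higher. Among the lower were Lama5 (-3.85, SE 0.12) and Lamc1 (-2.42, SE 0.10), which are laminin chains, and Itga5, a fibronectin receptor subunit, at least 21.5-fold lower. Lamb1, another laminin chain, and P-cadherin (Cdh3) were higher by 1.72 (SE 0.14; 0.75 and not called with spike-in scaling) and 2.91 (SE 0.17). Of 35 fibroblast, contractile and matrix genes, 20 were lower and 8 higher, and calponin (Cnn1) was at least 82.9-fold lower.

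Of 24 interferon and antigen presentation genes 15 (62.5%) were lower and 5 higher, with a median of -1.28. The class I gene H2-K1 stood at -2.16, -2.07 and -2.37 in PGCs and at 2.68, 2.88 and 2.92 in knockdown cells (difference -5.03, SE 0.13, adjusted p = 1.7e-08; -4.99 on another probe). H2-T23 and the immunoproteasome gene Psmb9 differed by -5.30 (SE 0.23) and -4.13 (SE 0.13). The transcription factor gene Irf1 was higher in PGCs by 2.20 (SE 0.10), and Isg15 by 2.77 (SE 0.36). H2 genes vary between mouse strains and the strains differed here, and the effect of strain on the H2 probes was not tested.

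Transcripts of glycolysis and respiratory chain genes differed in opposite directions on this scale. Of 35 glycolysis and pyruvate genes, 24 (68.6%) were lower in PGCs and 7 higher, with a median of -0.76, whereas 44 of 60 nuclear genes of the respiratory chain (73.3%) were higher and 4 lower, with a median of 0.55. With spike-in scaling both medians move down by 0.97, and the distance between the lists stays. The glucose transporters Slc2a3 (GLUT3) and Slc2a1 (GLUT1) stood at 2.24, 2.23 and 2.22 and at 2.43, 2.31 and 2.41 in PGCs. In knockdown cells they stood at 7.06, 6.73 and 6.70 and at 5.46, 5.36 and 5.34 (differences -4.60, SE 0.11, and -3.00, SE 0.08).

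Hexokinase 2 (Hk2), which traps glucose in the cell, stood at -0.55, -0.76 and -0.54 against 3.67, 3.58 and 3.58 (difference -4.23, SE 0.09, adjusted p = 7.9e-09). The lactate exporter Slc16a3 differed by -5.25 (SE 0.13), and Ldha, which makes lactate, by -4.62 (SE 0.13), or -5.50 and -5.91 on other probes. Its counterpart Ldhb was higher in PGCs at 5.38, 5.55 and 5.42 against 3.35, 3.26 and 3.24 (difference 2.17, SE 0.09). Control means of these 6 genes (6.80, 5.49, 3.23, 5.81, 7.63 and 3.20) were closer to the knockdown than to the PGC levels. Respiratory subunit genes such as Ndufs7 (1.22, SE 0.07), Ndufa6 (1.24, SE 0.09) and Sdha (1.2, SE 0.09) showed smaller differences, none called with spike-in scaling (0.25, 0.28 and 0.23), and the intervals of 39 of the 60 lay within 2-fold.

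MYC targets in ribosome making were higher in PGCs in 43 of 56 cases (76.8%) and lower in 7, with a median of 0.69. Polr1b, a subunit of RNA polymerase I, stood at 3.35, 3.22 and 3.19 against 0.73, 0.96 and 0.96 (difference 2.37, SE 0.09), and Ppan, which helps build the large ribosomal subunit, differed by 1.73 (SE 0.09; 0.76 and not called with spike-in scaling). Myc itself was lower in PGCs at -4.44, -4.35 and -4.19 against -0.21, 0.46 and 0.22 (difference -4.48, SE 0.18, adjusted p = 1.1e-07), while Mycn did not pass the test at 2.79, 2.88 and 2.70 against 3.25, 2.92 and 2.83 (interval -0.59 to 0.18; -0.44 and called with quantile normalization). Among 28 partners of MAX and subunits of PRC1.6, 14 were higher and 8 lower. E2f6 was higher by 1.57 (SE 0.11) and the H3K9 methyltransferase gene Ehmt2 by 1.45 (SE 0.10), neither called with spike-in scaling (0.6 and 0.49), and the Polycomb gene Rybp differed by -2.61 (SE 0.12). Of 28 cholesterol synthesis genes 17 were lower and 4 higher. The desaturase gene Scd1, which stands on that list, was 89.1-fold lower in the fit, with 0 PGC arrays above background.

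Cell cycle genes were lower more often than higher. Of 32 cyclin, CDK, RB and E2F genes 17 were lower and 12 higher, and of 39 DNA replication and mitosis genes 19 were lower and 7 higher, 0 of the latter by 2-fold. Rb1, the retinoblastoma protein that arrests male germ cells, stood at 1.86, 1.57 and 1.73 in PGCs and at -0.40, -0.67 and -0.71 in knockdown cells (difference 2.31, SE 0.11, adjusted p = 3.4e-07). The inhibitor Cdkn2a was higher by 2.16 (SE 0.13), and the G1 cyclin genes Ccnd1 and Ccne1 differed by -2.53 (SE 0.16) and -2.49 (SE 0.17). Cdkn1b (p27) was alike, with an interval of -0.35 to 0.25. The replication genes Gins2 and Rrm2 differed by -3.38 (SE 0.18) and -2.20 (SE 0.14). Of 22 immediate-early and dissociation response genes 11 were lower and 5 higher, and of 6 Y-linked genes tested 4 were higher and 1 lower.

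Among 31 enzymes of DNA methylation and H3K9 methylation, 15 were higher in PGCs and 12 lower, but of those past 2-fold 2 were higher and 10 lower. The de novo methyltransferase Dnmt3b stood at 0.66, 0.63 and 0.70 against 3.43, 3.29 and 3.49 (difference -2.74, SE 0.08, adjusted p = 2.4e-08), and Dnmt3a differed by -1.49 (SE 0.09). The demethylase gene Kdm4c differed by -2.63 (SE 0.14), and the methyltransferase gene Suv39h1 was higher by 1.03 (SE 0.11; 0.07 with spike-in scaling). Imprinted genes, 15 of 42 higher and 18 lower, went both ways. Asb4 stood at 1.38, 1.47 and 1.38 against -5.10, -5.14 and -5.77 (difference 6.74, SE 0.18). Asb4 was above background on 1 of 3 knockdown arrays, and another probe gave 2.39. Slc38a4, Sgce and Meg3 differed by -3.69 (SE 0.13), -3.26 (SE 0.10) and -3.04 (SE 0.15; -2.78 and -4.29 on other probes).

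Genes of other gonadal cells were also among the largest differences. Somatic genes of the fetal gonad were higher in PGCs in 19 of 30 cases (63.3%) and lower in 6, and 6 were above background on all PGC arrays and no knockdown array (20.0%, against 2.7% of all genes). The 30 are those of 38 on the array that passed the filter. A gene dim in both ES cell groups passed it only through the PGC arrays, so these shares partly follow from the filter. The median of 1.75 was 1.53 above that of all genes, and 0.35 above it with normexp. Cst9, a cystatin of Sertoli cells, stood at 2.12, 2.70 and 1.44 in PGCs and was at least 181-fold higher, and Defb19 at 0.57, 0.70 and -0.27 (at least 53.7-fold). Both are among the 12 largest rises, and PGC array 2 was the highest and PGC array 3 the lowest for each. Amh, the Sertoli cell hormone, followed the same order at -2.90, -2.37 and -3.39, and was at least 5.77-fold higher, a call lost with normexp (0.1). The retinoic acid enzymes Aldh1a1 (6.25, SE 0.27) and Cyp26b1 (3.43, SE 0.25), which gonadal somatic cells make, were on the meiotic entry list, and the latter was not called with normexp (1.64).

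The summed level of 6 Sertoli cell markers ranged from 1.80 to 2.75 in PGCs and from 1.10 to 1.64 in knockdown cells. Of the 6, 4 were higher in PGCs. In control cells the Sertoli sum ranged from 1.46 to 1.85, which overlaps the PGC range. Of 5 Leydig cell markers 4 were on the array and 3 were higher. The sum of the 4 ranged from 1.52 to 2.40 in PGCs, from 0.20 to 1.06 in knockdown cells and from 0.1 to 1.23 in control cells. Of 8 blood markers 5 were tested and 4 were higher. The sum of the 8 was 0.57 to 1.6 in PGCs, -0.84 to -0.18 in knockdown cells and -0.99 to -0.32 in control cells. The globin gene Hbb-bt was at least 22.6-fold higher (adjusted p = 3.8e-07; not called with normexp, at 1.85). Of 7 endothelial markers 5 were tested, of which 0 were higher and 4 were lower. Tek, Tie1, Emcn and Esam were above background on no PGC array. The untested Cdh5 and Emcn had means of -5.61 and -5.22 in PGCs and -7.25 and -6.82 in knockdown cells. Cdh5 was above background on 1 of 3 PGC arrays, and neither gene was on any knockdown array. Of 18 blood and endothelium list genes tested, 6 were higher and 7 lower, and the higher ones included an endothelial claudin gene (3.05, SE 0.28). Sums of different probe sets are not comparable with each other, only between groups. The sum of 10 PGC markers ranged from 6.82 to 6.90 in PGCs and from 5.09 to 5.27 in knockdown cells. In control cells it ranged from 4.5 to 4.82, and all 10 were above background on all arrays of each group, control cells included. The largest members of the sum in knockdown cells were Tfap2c, Ddx4 and Dazl, with means of 3.03, 2.92 and 2.62 against 2.73, 0.28 and -1.88 in control cells. The Ddx4 promoter drives the reporter used to sort the knockdown cells, so the sum is not independent of the gate. The sum of 10 ES cell markers ranged from 6.86 to 6.96 in PGCs against 7.43 to 7.54 in knockdown cells. That of 4 of 5 markers of the male germ cell at this age ranged from 4.92 to 5.33 against 6.2 to 6.28, with 2 higher and 2 lower. In knockdown cells the latter sum was carried by Dnmt3l, which was also high in control cells, while Nanos2 and Tdrd5 were low. Markers of gonadal interstitium ranged from -1.68 to -1.6 against -1.68 to -0.86, those of primitive endoderm from -1.40 to -0.85 against 0.23 to 0.76, and those of fibroblasts from -0.07 to 0.35 against 0.13 to 0.22. The part of somatic cells or their RNA in genes called higher in PGCs was not tested, and a smaller share of cells with a transcript cannot be told apart from less of it in each cell.

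**Figure D4:**
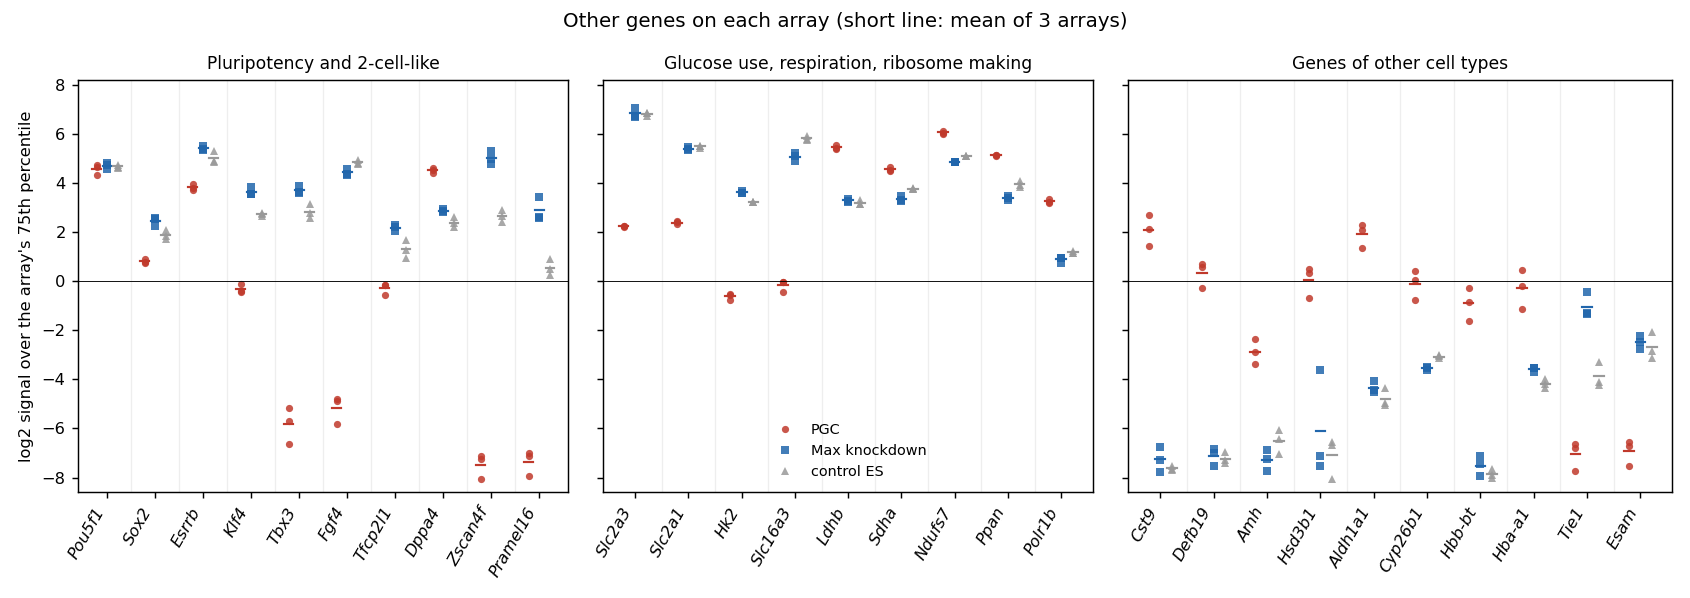
Level of 29 further genes on each of 9 arrays (vertical axis: log2 signal over the 75th percentile of the array), for PGCs (circles), knockdown cells (squares) and control ES cells (triangles), with the mean of 3 arrays as a short line. Zscan4f, Fgf4 and glucose transport genes were lower in PGCs, and markers of Sertoli cells (Cst9, Defb19, Amh) and blood (Hbb-bt, Hba-a1) were higher, with a wider spread among the PGC arrays.

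The largest rises held further genes that were dim in the ES cells. Beside Stag3, Nanos2, Cst9, Wnt3 and Defb19, they were Prss29, a tryptase-like protease (at least 89.3-fold; its probes gave 7.87 and 5.46), the zinc finger gene Bnc1 (at least 69.1-fold), Fam163a (at least 79.0-fold), Khdc1a (at least 47.3-fold), the calmodulin kinase gene Camk1g, the vesicle protein gene Syt10 and Xkrx. Camk1g, Syt10 and Xkrx were above background on 1 of 3 knockdown arrays, so their fitted differences (7.30, 7.17 and 7.13) and their rank rest on knockdown values mostly not above background. The 12 largest falls also held Aqp3, a water and glycerol channel gene. It stood at 3.56, 3.1 and 3.22 in knockdown cells, close to its control mean of 2.74, and was at least 351-fold lower in PGCs (adjusted p = 1.0e-08).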

How the data were processed

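RNA of 9 samples (3 PGC, 3 Max knockdown, 3 control ES, each from 100 ng of total RNA) was read on single-colour Agilent arrays. Per the file headers, the deposited spot intensity (gProcessedSignal) was background-subtracted by Feature Extraction 10.7.3.1, with no scaling between arrays. A deposited table of log2 values, whose centring is not stated, served as an alternative. It differs from the values used by a constant per array (r = 1 for differences between arrays), with column medians from -0.12 to 0.39.

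Here log2 intensity minus the 75th percentile of each array was used. Of 39429 non-control probes, 39364 remained after outlier flags, and 26006 were named through RefSeq accessions. For each gene 1 probe was taken, and 20443 genes above background on all arrays of a group were tested with limma 3.58.1 in R 4.3.3, in 1 fit of all 9 arrays. P-values were adjusted by Benjamini-Hochberg with a threshold of 0.05. A bound ("at least N-fold") is given where no array of the dim group was above background. Each dim array then took the lowest signal above background on that array, or its own signal where that was higher. A spot not above background can be brighter than that lowest signal, so the bound is approximate and not a strict minimum. Exact permutation of 3 against 3 samples cannot give less than 0.1. The labels call the samples biological replicates, and only 9 arrays limit the precision.

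The genes named are a fixed set of 17, the 12 largest rises and falls, up to 4 members of each list in each direction with the smallest p, the 3 germ list members nearest to 0, and cell type markers; a part of them is printed. The groups, lists and rules were chosen with earlier results of these data known. On simulated data of 20443 genes, 50 genes were changed by each of 0.5, 1, 2 and 3 (log2), with independent errors and no slide effect. The fit called 14%, 78%, 94% and 98% of them, with 13 false calls among the unchanged genes. In the real data 76.3% of genes were called and slide went with group, so these rates do not carry over to the comparison. Replicate numbers did not pair samples (correlation of deviations -0.029 and 0.002). Some genes are not reported here.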

Additional observations from a re-analysis of the deposited data

How the results depend on the processing

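Over 20 alternatives, 121 of 152 genes named in the text kept their side of the threshold throughout. Those of the 121 that were called higher or lower in PGCs also kept their direction. For genes not called, a change of sign was not counted. A call was lost under at least 1 alternative for 26 genes, and 1 called gene changed sign (Mov10l1, -0.47 with spike-in scaling). With spike-in scaling the counts were 1003 genes higher, 1003 at least 2-fold higher and 7252 at least 2-fold lower, and 0 germ cell genes had an interval within 2-fold. The mean log2 spike-in signal was 10.6, 10.5 and 11.8 on the knockdown arrays and 11.6, 11.7 and 11.9 on the PGC arrays. It followed the slide. Knockdown arrays 1 and 2 shared slide 1 with control arrays 1 and 2 (10.4 and 10.6), and knockdown array 4 shared slide 2 with control array 3 (11.9). Slide and group therefore cannot be told apart on the spike-in scale either. With normexp on median signals the counts were 3746 higher, 3266 lower, 2635 at least 2-fold higher and 36 germ cell genes within 2-fold. There the median of a list minus that of all genes turned to 0.11 for synaptonemal genes, 0.08 for recombination, 0.19 for PGC specification, 0.63 for PRC1.6 targets, 0.41 for DNA methylation enzymes, 0.38 for replication and mitosis and 0.29 for MAX partners, and 20 of 33 list medians moved without a change of sign (germline RNA-binding genes from 0.66 to 1.2). A repeat without 11 probes far under their background, chosen after seeing the data, moved the median of all genes by -0.01 in place of -0.47, and gave 2639 at least 2-fold higher and 2577 lower, with 11 list medians moved and 0 reversed. In that repeat 152 of 152 named genes stayed on the same side of the threshold, those whose call was lost with normexp included. The filter on all 9 arrays gave 2449 at least 2-fold lower, 0.24 for the meiotic entry list and -0.19 for Y-linked genes; it tests 16205 genes, without those dim in either group. The cause of the other changes was not tested.

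Leaving out 1 replicate gave 8626 to 9033 genes higher, 6160 to 6259 lower, 4025 to 4301 at least 2-fold higher and 3985 to 4051 at least 2-fold lower. Replicate numbers are not a pairing, and with the number as a block 8625 were higher and 6099 lower. Slide as a random block (correlation 0.288) gave 8793 and 6184. Dim spots limit the counts: a gene near background has an uncertain size of difference.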
